A study of Mus musculus with 36 samples.

Results

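Of the 58177 ATAC-seq peaks measured in mouse cortical neurons (CNs), 66 gained accessibility at both late times of KCl depolarization and little at 1 h of KCl or BDNF. ATAC-seq counts where a transposase cuts exposed DNA, so a peak's read count measures its accessibility. The 66 peaks were chosen by their own accessibility: a mean count of at least 20 over the 18 ATAC columns (40667 peaks passed), then L of at least 0.8 at both KCl 6 h and KCl 10 h and L below 0.4 at both KCl 1 h and BDNF 1 h. L is the log2 ratio of a group's mean CPM (counts scaled to the same total of reads in peaks in every column, 0.5 added) to the mean of the 6 control columns, less its median over the 40667 kept peaks. The values that chose the peaks are therefore given as a description, with no test.

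The CNs came from CD-1 mouse embryos at embryonic day 15, whose cortices were pooled into 1 cell preparation, and were grown for 7 days in vitro. They were silenced for 2 h with 100 µM AP-5, which blocks NMDA receptors, and 1 µM TTX, which blocks sodium channels. BDNF (10 ng/ml) or KCl (55 mM) was then added for 1, 6 or 10 h, and the controls of each time stayed in AP-5 and TTX for 3, 8 or 12 h in all, so no group was left unsilenced. Each of the 9 groups had 2 ATAC-seq and 2 RNA-seq samples. The study calls the samples of a group biological replicates, but the sources used here do not say whether they were separate cultures, so the p-values below measure the spread between these samples. BDNF is a secreted neurotrophin that signals through the TrkB receptor, and raised extracellular KCl depolarizes the membrane and opens voltage-gated calcium channels.

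Neuronal activity first induces transcription factors such as the FOS and JUN proteins, which pair as AP-1 and bind many distal regulatory elements. These factors are followed by late-response genes for channels, receptors and secreted peptides. MEF2 proteins, which act in neurons downstream of calcium, also bind activity-dependent elements, and class IIa histone deacetylases such as HDAC9 bind and repress them.

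The central 200 bp of 6 of the peaks are printed here (GRCm38, the mm10 build, plus strand, 5′ to 3′). Capitals mark matches to the motif words listed further on, other than the E-box, which most windows hold. The Aard and Kcne4 peaks are the only members with a mean count of at least 50, the Gm9747 peak has the largest value of the smaller late L, the Hdac9 and Pcsk5 peaks lie in the introns of the 2 linked genes with the largest rises of RNA at late KCl, and the Kcnj3 peak stayed a member whichever column was left out. Peaks are called by their nearest protein-coding gene, which does not mean that they act on it. The windows are chr15:52054592-52054791 (Aard), chr1:78745447-78745646 (Kcne4), chr1:82200067-82200266 (Gm9747), chr12:34569325-34569524 (Hdac9), chr19:17799810-17800009 (Pcsk5) and chr2:55580308-55580507 (Kcnj3).
Aard peak: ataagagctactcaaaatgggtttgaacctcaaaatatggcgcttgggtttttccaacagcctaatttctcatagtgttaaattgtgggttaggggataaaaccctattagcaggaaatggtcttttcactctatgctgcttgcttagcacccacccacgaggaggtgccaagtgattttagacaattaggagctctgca
Kcne4 peak: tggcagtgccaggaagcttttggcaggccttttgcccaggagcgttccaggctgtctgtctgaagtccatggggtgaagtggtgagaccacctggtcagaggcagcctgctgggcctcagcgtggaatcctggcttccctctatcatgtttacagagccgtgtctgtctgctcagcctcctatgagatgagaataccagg
Gm9747 peak: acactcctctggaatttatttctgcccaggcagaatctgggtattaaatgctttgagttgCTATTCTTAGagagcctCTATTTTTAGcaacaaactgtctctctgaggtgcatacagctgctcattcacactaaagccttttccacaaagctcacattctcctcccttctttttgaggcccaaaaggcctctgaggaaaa
Hdac9 peak: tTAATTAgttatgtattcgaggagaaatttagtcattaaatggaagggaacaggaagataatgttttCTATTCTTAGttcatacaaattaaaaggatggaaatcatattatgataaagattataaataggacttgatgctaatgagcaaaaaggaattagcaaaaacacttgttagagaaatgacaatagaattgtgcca
Pcsk5 peak: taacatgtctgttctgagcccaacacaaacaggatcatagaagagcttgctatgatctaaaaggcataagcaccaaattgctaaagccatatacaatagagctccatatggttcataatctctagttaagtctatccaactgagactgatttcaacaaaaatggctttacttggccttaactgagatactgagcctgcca
Kcnj3 peak: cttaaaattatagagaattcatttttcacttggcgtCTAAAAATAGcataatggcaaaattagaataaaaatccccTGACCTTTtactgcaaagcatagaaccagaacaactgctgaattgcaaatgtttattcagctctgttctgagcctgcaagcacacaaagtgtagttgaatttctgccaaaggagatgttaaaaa
The Aard, Kcne4 and Pcsk5 windows held none of the capitalised motifs. The Gm9747 window held 2 MEF2 words, the Hdac9 window a homeobox and a MEF2 word, and the Kcnj3 window a MEF2 and an NBRE word. The MEF2 word searched accepts any base in its middle. CTATTCTTAG, which is the match in the Hdac9 window and the first in the Gm9747 window, has a C there.

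The median accessibility of the 66 peaks was low in all columns but those of late KCl. It was 5.43 to 6.75 CPM in the 6 control columns, 4.97 and 5.90 at BDNF 1 h, and 7.1 and 6.01 at KCl 1 h. At KCl 6 h it was 13.2 and 13.3, and at KCl 10 h 12.6 and 12.1. With late BDNF it was 6.54 and 6.09 after 6 h, then 7.66 and 6.48 after 10 h. Over all kept peaks the median lay between 11.4 and 13.1 CPM in each of the 18 columns, near the members' level under late KCl alone. This difference between columns is partly set by the choice of peaks. The rule asked for high late KCl against the controls and low values at 1 h. The late KCl columns also counted toward the mean count of at least 20, which favours peaks that are low elsewhere. ATAC depth ran from 1.24 M reads in peaks (M for mega, KCl 6 h replicate 2) to 6.24 M, and the median count of a member was 15 to 55.5 reads per column (16.5 in that shallowest library and 55.5 in KCl 6 h replicate 1).

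**Figure D1:**
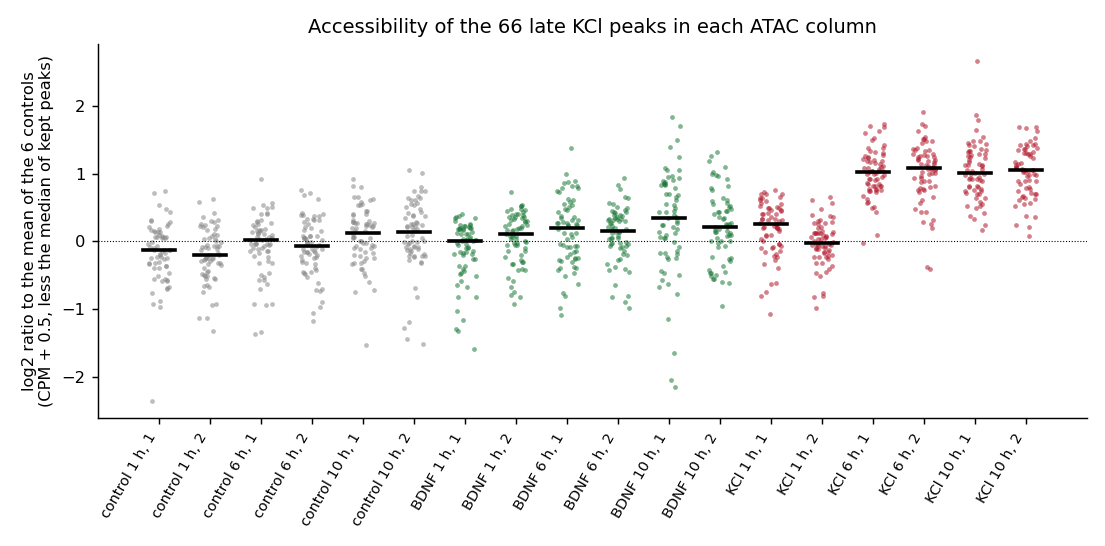
Each point is 1 of the 66 peaks in 1 ATAC column, as its log2 ratio to the mean of the 6 controls (CPM + 0.5, less the median of kept peaks); the black bar is the median over peaks. The medians of the 4 late KCl columns lie between 1.00 and 1.08. Those of the other 14 columns lie between -0.20 (control 1 h replicate 2) and 0.35 (BDNF 10 h replicate 1). Values in late KCl, in KCl and BDNF 1 h and in the controls are partly set by the choice of peaks.

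The median L of the members was 0.15 at KCl 1 h, 1.01 at KCl 6 h and 0.98 at KCl 10 h, and 0.07, 0.16 and 0.27 at BDNF 1, 6 and 10 h. Late BDNF was not limited directly by the rule, and L was at least 0.4 in 20 of the 66 at BDNF 6 h and in 28 at BDNF 10 h (5644 and 6930 of the 40667 kept peaks). The gain at late KCl was modest. L ran from 0.81 to 1.60 at 6 h and from 0.80 to 2.25 at 10 h, 20 of the 66 peaks reached 1 at both times, and L was larger at 10 h in 33 and larger at 6 h in the rest. Many members lay close to the limits of the rule. At KCl 6 h, 14 members lay within 0.1 of the limit and 11 other peaks missed by less than 0.1 (0.81, 0.81 and 0.82 just inside, 0.80, 0.78 and 0.76 just outside), and at KCl 10 h these numbers were 23 and 27 (0.80, 0.81 and 0.81 inside, 0.80, 0.80 and 0.78 outside). At KCl 1 h they were 14 and 29 (0.38, 0.38 and 0.37 inside, 0.40, 0.40 and 0.40 outside) and at BDNF 1 h 7 and 10 (0.38, 0.36 and 0.34 inside, 0.40, 0.41 and 0.41 outside). The same rule with every sign turned, for peaks closed late by KCl, found 20 peaks, and the rule with the stimuli exchanged, for peaks opened late by BDNF, also found 20, of which 2 were members.

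The columns of a group did not always separate, since the rule used their means. In 44 of the 66 peaks all 4 late KCl columns lay above all 6 controls (5.86% of kept peaks did so), in 53 above the 4 columns of KCl 1 h and BDNF 1 h (3.44%), and in 25 above the other 14 columns (0.595%). These counts follow from the choice of peaks. In 35 the late KCl columns lay above the 4 late BDNF columns (6.15%), which the rule did not use, but the rule fixed the KCl side of that comparison too.

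The Aard peak (chr15:52054254-52055128, intergenic, 14.6 kb from the start of Aard) had the highest mean count, 66.6. Its 6 controls lay between 12.3 and 17.9 CPM (median 14.1), KCl 6 h at 28.5 and 30.6, and KCl 10 h at 38.2 and 22.4. BDNF 1 h was at 18 and 17.9, BDNF 6 h at 22 and 16.5, BDNF 10 h at 19.8 and 15.5, and KCl 1 h at 15.7 and 13.3. The 4 late KCl columns lay above the other 14, although the lowest of them was only just above BDNF 6 h replicate 1. The Kcne4 peak (chr1:78745248-78745844, intergenic, 71.2 kb from Kcne4, an accessory subunit of potassium channels) had controls from 11.9 to 23.9 CPM (median 14.5), 33.7 and 27.4 at KCl 6 h, and 29.8 and 28.0 at KCl 10 h. Its BDNF 6 h columns were at 27.5 and 9.44, so that 1 late BDNF column overlapped the late KCl columns.

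The members with the largest smaller late L had low counts, and they are named here after their values were seen. The Gm9747 peak (chr1:82200010-82200323, intergenic, 32.9 kb from its gene) was at 2.60 to 6.63 CPM in controls (median 4.53), 15.7 and 13.7 at KCl 6 h and 17.7 and 7.47 at KCl 10 h, where 1 BDNF 10 h column at 8.90 lay within the late KCl range. The intronic Hs3st5 peak (chr10:36726248-36726652, 219.4 kb from the start), in a gene for a heparan sulfate sulfotransferase, had the highest L at KCl 10 h of all members, 2.25, from 29.5 and 14.9 CPM against controls of 3.13 to 5.74 (median 4.19). Its KCl 6 h columns were at 11.2 and 9.66, and its BDNF columns between 2.62 and 6.96, so late KCl did not overlap with any other group.

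Membership depended on single columns. Each of the 14 columns that enter the rule was left out in turn, which gave 58 to 94 peaks and kept 43 to 65 of the 66. Only 4 members were kept in all 14 runs: the Hs3st5 peak, an intronic Agbl4 peak (chr4:111019409-111019839), the intronic Kcnj3 peak (chr2:55580188-55580627) and an intergenic peak 52.5 kb from Gm26897 (chr5:111681327-111681615). The Kcnj3 peak, in the gene of a G protein-gated potassium channel subunit, had controls of 5.32 to 8.24 CPM (median 7.01), KCl 1 h columns of 8.37 and 5.93, and late KCl columns of 14.3, 13.7, 14.4 and 15.6, and the highest other column was BDNF 10 h replicate 2 at 9.72. With controls of the same time in place of all 6, 114 peaks met the rule and only 21 of the 66 were among them.

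A late KCl column left out of the rule showed a smaller gain than the one that chose the peaks. With 1 late KCl column left out of the rule, the 65 to 79 peaks then chosen had a median log2 ratio in that column of 0.64 (KCl 10 h replicate 1), 0.70 (KCl 10 h replicate 2), 0.78 (KCl 6 h replicate 1) and 0.75 (KCl 6 h replicate 2), against 1.04 to 1.10 in the replicate that chose them. The left-out column was above 0 in 71 of 79, 63 of 67, 62 of 65 and 64 of 73 peaks, and at least 0.8 in 28, 28, 32 and 32 of them, where 8.16%, 7.34%, 7.18% and 9.84% of all kept peaks reached 0.8. Both columns were set against the same controls that chose the peaks, so the gain in the left-out column is not independent of them.

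Late BDNF was not part of the rule, and its effect on the members was tested with edgeR's quasi-likelihood test over 56383 peaks (adjusted p below 0.1), against the same 6 controls that the rule used. The rule's limit on BDNF 1 h also left out peaks that BDNF had opened early and that could stay open, while all peaks tested still hold them. The members' shares at late BDNF are therefore partly set by the choice of peaks. At BDNF 6 h, 1 of the 66 members was gained (8.94% of all peaks tested) and 1 was closing (1.74%). At BDNF 10 h 6 were gained (7.48%) and 1 was closing (1.89%), shares near the background. The count at 10 h rested on single columns. Without BDNF 10 h replicate 1, edgeR called 0 members gained (4.43% of all peaks, with 7 members gained at an unadjusted p below 0.05), without BDNF 10 h replicate 2 it called 3 (5.13%), and with controls of the same time 1 (4.06%). DESeq2 called 6 and limma 8 at BDNF 10 h in all samples. The median log2 fold change of the members was 0.08 at 6 h and 0.12 at 10 h, beside -0.04 and -0.04 over all peaks tested. In 4 of the 66 the 4 late BDNF columns lay above all 6 controls (6.15% of kept peaks).

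A peak 803.4 kb from Pcdh17, a protocadherin (chr14:83639858-83640413), was gained at both late BDNF times, with log2 fold changes of 0.75 (SE 0.26, adjusted p 0.050, edgeR) and 0.98 (SE 0.28, adjusted p 0.0106). Its columns were at 17.3 and 13.7 CPM at BDNF 6 h, then 26.7 and 11.9 at BDNF 10 h, beside 16.6, 17.7, 25.5 and 25.8 at late KCl and controls of 6.12 to 12.1 (median 9.46). The other 5 members gained at BDNF 10 h were a peak 213.8 kb from the glutamate receptor gene Grm3 (1.3, adjusted p 0.00965), an intronic Lyst peak (0.86, adjusted p 0.0416), a peak 119.3 kb from Try4 (1.23, adjusted p 0.0458), an intronic Adarb2 peak (1.14, adjusted p 0.0599) and an intronic peak of the AMPA receptor gene Gria4 (1.15, adjusted p 0.0678). The 2 members closing under BDNF were a peak 43.1 kb from Defb41 at 6 h (-1.18, adjusted p 0.0450) and the intronic B230118H07Rik peak at 10 h (-1.23, adjusted p 0.0992).

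Whether the members drift as silenced culture goes on was asked of the controls alone. With edgeR, 0 members were called between control 6 h and control 1 h (0.0% of peaks tested) and 0 between control 10 h and control 1 h (0.0372%), and DESeq2 and limma also called 0. At an unadjusted p below 0.05, 4 members differed at 6 h (4.61%) and 8 at 10 h (8.11%). The median log2 fold change of the members was 0.12 at 6 h and 0.30 at 10 h, with 50 of 66 above 0 at 10 h, beside 0.01 and 0.02 over all peaks. The members were not alone in this, and values for other sets are given with those sets below. As control columns entered the rule, the members' control values are not free of it, and what part this drift has in the late gain was not tested.

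The most like sets were themselves chosen by their response at 1 h, so their early values follow from the choice. A set of 292 peaks met the same KCl limits but had L of at least 0.8 at BDNF 1 h, and its median L was 0.20, 1.18 and 1.24 at KCl 1, 6 and 10 h and 1.84, 1.68 and 1.61 at BDNF 1, 6 and 10 h. A set of 1001 peaks with L of at least 0.8 at 1 h of both stimuli was at 1.07, 1.2 and 1.23 with KCl and 1.95, 1.54 and 1.46 with BDNF. The median centred log2 ratio of CPM in control 10 h to control 1 h was 0.28 in the members. It was 0.40 in the 292 peaks and 0.16 in the 1001 peaks. In the 10354 kept peaks that were not promoter peaks and had GC below 45% it was 0.12. Of the 1664 peaks with L of at least 0.8 at both late KCl times, 1275 had L of at least 0.4 at KCl 1 h already.

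**Figure D2:**
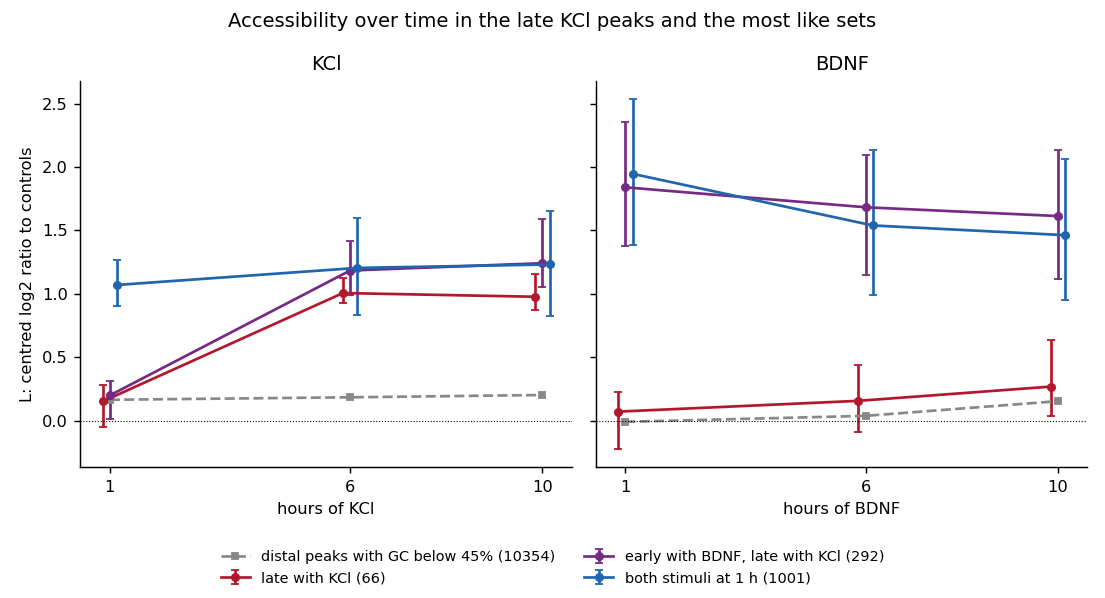
Median L (centred log2 ratio to controls) against hours of KCl (left) or BDNF (right) for the 66 late KCl peaks, 2 like sets and the 10354 distal peaks with GC below 45%; bars are quartiles over peaks, drawn for the 3 sets. With BDNF the late KCl set has medians of 0.07, 0.16 and 0.27 at 1, 6 and 10 h and the 292 early BDNF peaks lie between 1.61 and 1.84.

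The members lay far from transcription start sites (TSSs), although many were inside genes. Of the 66, 37 were intergenic (56.1%, exact 95% interval 43.3% to 68.3%), 27 intronic (40.9%), 1 exonic and 1 a promoter peak, within 1000 bp upstream to 100 bp downstream of a TSS. That promoter peak (chr15:50285997, 541 kb from Trps1) lay at a non-coding transcript, whereas 34.9% of kept peaks were promoter peaks. The median distance to the nearest protein-coding TSS was 116 kb, beside 19.6 kb for kept peaks, 91.1 kb for the 292 early BDNF peaks and 92.5 kb for the 10354 kept peaks that were not promoter peaks and had GC below 45% (distal low-GC peaks). A TSS lay within 50 kb of 23 members (34.8%, beside 34.3% of the distal low-GC peaks). The members were spread over 18 chromosomes, none lay within 10 kb of another, and a single pair, near Tcf20 and Nfam1 on chromosome 15, lay within 100 kb.

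**Figure D3:**
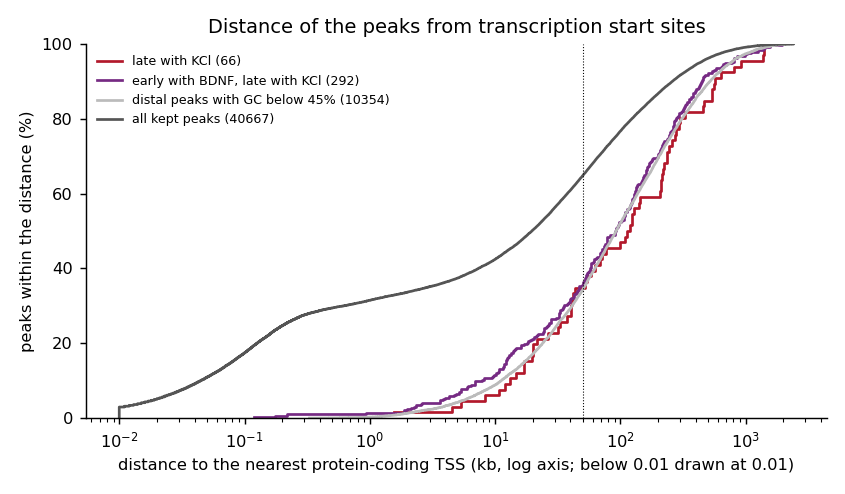
Cumulative share of peaks (percent) by distance to the nearest protein-coding TSS (kb, log axis) for the 66 members, the 292 early BDNF peaks, distal low-GC peaks and all kept peaks. The members' median of 116 kb lies beyond the 19.6 kb of kept peaks and near the 92.5 kb of the distal low-GC peaks.

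The members were shorter, more AT-rich and weaker than kept peaks, and so were the like sets. Their median GC over the central 200 bp was 40.75% (kept peaks 51.5%, the 292 early BDNF peaks 42% and the 1001 peaks opened by both at 1 h 43%). Their median width was 371 bp (476, 343 and 361 bp) and their median mean count 25.4 (42.3, 25.9 and 28.3), and 47 had a mean count below 30. The rule was met by 0.375% of kept peaks with a mean count of 20 to 30, by 0.157% at 30 to 50 and by 0.0115% at 50 or more, and by 0.440% of peaks with GC below 45%, 0.0898% at 45 to 55% and 0.0366% at 55% or more. All peaks with GC below 45% had a median L of 0.18 and 0.20 at KCl 6 and 10 h, and those with GC of at least 55% -0.08 and -0.12. The part of counting error and of GC in the choice of members was not tested.

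The DNA of the members was searched, over the central 200 bp and on both strands, for 12 motif words: AP-1 (TGANTCA), CRE (TGACGTCA), NBRE (AAAGGTCA), octamer (ATGCAAAT), homeobox (TAATTA), EGR (GCGNGGGCG), E-box (CANNTG), ETS (CCGGAAGT), KLF/SP (GGGCGGG), MEF2 (CTANNNNTAG), CTCF (CCANNAGNNGGC) and NFI (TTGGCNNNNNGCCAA). Words may overlap one another. A match is a word in the sequence and not a bound site. The MEF2 word is loose, as it takes any base at its N positions, and the share with only A or T there was not counted. Intervals of shares are exact binomial (Clopper-Pearson, 95%) and hold counting error alone.

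AP-1 words were much rarer in the members than in the peaks with an early response. They stood in 4 of 66 windows (6.06%, interval 1.68% to 14.8%), beside 70.9% of the 292 early BDNF peaks (65.3% to 76.0%), 73.2% of the 1001 peaks opened by both at 1 h, 18.3% of distal low-GC peaks and 9.93% of kept peaks. Among 5890 distal low-GC peaks that also had L below 0.4 at KCl 1 h and BDNF 1 h, the share was 5.94% (5.35% to 6.58%), close to the members' share. This last set was added after the shares were seen. The share depended on the window. In the central 100 bp it was 1.52% of members, 44.2% of early BDNF peaks and 2.89% of the quiet distal low-GC peaks, and over whole peaks 16.7%, 80.8% and 14.2%. The 4 members with an AP-1 word lay near Serpinb3b and Shox2, in a Lyst intron and at the non-coding promoter on chromosome 15.

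MEF2 words stood in 7 windows (10.6%, 4.37% to 20.6%), beside 4.18% of the quiet distal low-GC peaks (3.68% to 4.72%), 6.51% of the early BDNF peaks and 2.65% of kept peaks. The lower end of the members' interval lies just above the share of the quiet distal low-GC peaks and below the 4.62% of all distal low-GC peaks. Besides the Gm9747, Hdac9 and Kcnj3 peaks, they were the intronic Adarb2 peak, the Defb41 and Rbpj peaks and the non-coding promoter peak on chromosome 15. Homeobox words stood in 9 windows (13.6%, 6.43% to 24.3%, beside 20.3% of quiet distal low-GC peaks), octamers in 4 (6.06%, beside 5.43%) and E-boxes in 50 (75.8%, beside 73.6%), and these intervals cover the background. NBRE and KLF/SP words stood in 1 window each, and CRE, EGR, ETS, CTCF and NFI words in 0 of 66, for which the exact interval reaches 5.44% (CTCF words stood in 6.64% of quiet distal low-GC peaks and 5.11% of kept peaks). No word but the E-box stood in 45 of the 66 windows.

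**Figure D4:**
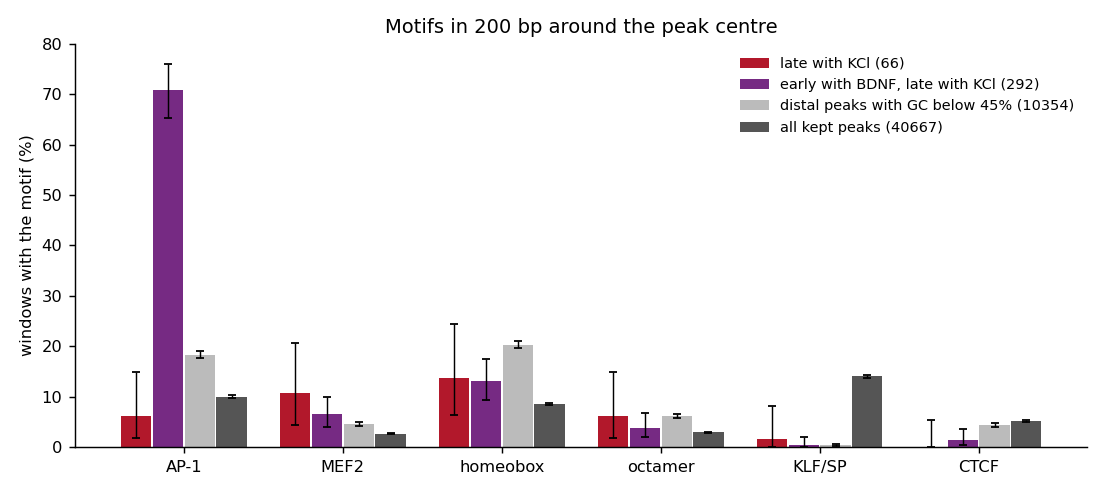
Share of 200 bp windows that hold each motif word (percent) in the 66 members, the 292 early BDNF peaks, distal low-GC peaks and all kept peaks, with exact 95% intervals for counting error. AP-1 words stand in 6.06% of the members and 70.9% of the early BDNF peaks, while the MEF2 share of 10.6% has an interval from 4.37% to 20.6%.

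RNA did not enter the rule, so the genes near the peaks could be tested. RNA depth was 8.51 to 36.7 M reads per library. A gene was linked when the start of any of its protein-coding transcripts was the nearest such TSS and lay within 50 kb of the peak's centre. Such a start can lie inside the gene. This gave 23 genes, each with 1 member, of which 18 were tested with limma on log2(normalised read count + 1) over 16209 genes (adjusted p below 0.1). Fold changes of RNA are on that scale, which understates the changes of weakly expressed genes.

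The linked genes did not move together. At KCl 6 h 5 of 18 were higher (33.4% of all genes tested) and 5 lower (33.1%), and at KCl 10 h 4 were higher (29.0%) and 5 lower (28.2%), with median log2 fold changes of 0.11 and 0.07 beside 0.01 and 0.01 over all genes. At KCl 1 h 3 were higher (26.5%) and 4 lower (28.2%). BDNF 1 h gave 5 higher (21.3%) and 3 lower (19%), BDNF 6 h gave 6 higher (22.1%) and 4 lower (21.1%), and BDNF 10 h gave 2 higher (21.1%) and 4 lower (19.5%). In the direct comparison of KCl with BDNF 7 were higher with KCl (27.8%) and 2 lower (29.6%) at 6 h, and 5 (21.8%) and 2 (23.1%) at 10 h. These shares lay on both sides of the background, with 18 genes behind each.

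Hdac9 rose most among the linked genes at late KCl. It encodes a class IIa histone deacetylase (ENSMUSG00000004698, chr12:34047580-34917095, minus strand), and its member peak lay in an intron (chr12:34569088-34569761). That peak was 40.6 kb upstream of its nearest protein-coding start, which lies inside the gene and not at the gene's 5′ end. Normalised read counts were 254 to 318 in the 6 controls (median 282), 207 and 215 at KCl 1 h, 1724 and 1589 at KCl 6 h and 1943 and 1856 at KCl 10 h, so the 4 late KCl samples lay far above all others. The log2 fold change was 2.56 at KCl 6 h (SE 0.09, adjusted p 6.61e-15, limma) and 2.76 at KCl 10 h (SE 0.09, adjusted p 3.57e-15). At BDNF 6 h Hdac9 had 262 and 236 reads and at 10 h 300 and 246, neither time called against controls, and KCl exceeded BDNF by 2.73 at 6 h (adjusted p 1.79e-13) and 2.80 at 10 h (adjusted p 1.12e-13). At 1 h Hdac9 was lower with both stimuli (-0.41 with KCl, adjusted p 0.00119, and -0.40 with BDNF, adjusted p 0.0022, limma). The peak itself was at 5.64 to 12.1 CPM in controls (median 8.80), 10.1 and 12.5 at KCl 1 h, 15.7 and 21.7 at KCl 6 h, 19.8 and 16.8 at KCl 10 h, and 13.8 in the highest BDNF column, so the late KCl columns lay above the rest.

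Pcsk5, a proprotein convertase that cleaves secreted precursors (ENSMUSG00000024713, chr19:17432319-17837632, minus strand), rose at the late times of both stimuli and more with KCl. It was at 230 to 262 normalised counts in controls (median 244), 566 and 448 at KCl 6 h and 747 and 603 at KCl 10 h, with log2 fold changes of 1.04 (SE 0.11, adjusted p 2.49e-08, limma) and 1.46 (SE 0.11, adjusted p 3.1e-10). BDNF gave 293 and 339 after 6 h, then 314 and 341 after 10 h (0.37 and 0.42, adjusted p 0.00914 and 0.00409), after a lower value at BDNF 1 h (-0.27, adjusted p 0.0550), and the difference between the stimuli was 0.67 at 6 h and 1.03 at 10 h (adjusted p 0.000156 and 1.74e-06). Its linked peak (chr19:17799664-17800154) had controls of 2.89 to 8.83 CPM (median 5.38) and late KCl columns of 14, 7.25, 8.04 and 11.8, which overlap the controls. A second member lay in the same gene (chr19:17627692-17628154).

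The other linked genes higher at both late KCl times, BC048507 and Phf3, moved less and were already higher at KCl 1 h (0.41 and 0.30, adjusted p 0.00554 and 0.000973, limma). BC048507 was at 114 to 147 normalised counts in controls (median 131.5), 173 and 213 at KCl 6 h and 164 and 162 at KCl 10 h (0.56 and 0.33, adjusted p 0.00022 and 0.0213, limma). Phf3, a PHD finger protein, was at 1534 to 1697 in controls, 1972 and 1626 at KCl 6 h and 1692 and 1859 at KCl 10 h (0.16 and 0.15, adjusted p 0.0454 and 0.0772), and its groups overlapped. Without KCl 6 h replicate 1 its 6 h value was 0.02, and without KCl 10 h replicate 2 its 10 h value was 0.08, neither called.

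4 linked genes were lower at both late KCl times although the peak beside them gained accessibility. Lemd1 was at 18.7 to 49.9 normalised counts in controls (median 39.3), 9.83 and 11.6 at KCl 6 h and 12.2 and 12.0 at KCl 10 h (-1.55 and -1.38, adjusted p 0.000273 and 0.00118, limma). Its member lay 4.5 kb from the TSS, and the late KCl samples lay below all controls. Lemd1 was also lower at BDNF 6 h (-0.80, adjusted p 0.0562) and at -0.62 at BDNF 10 h, not called. B230118H07Rik went from 96.1 to 124 in controls (median 114) to 56.0 and 66 at KCl 6 h and 66 and 71.9 at KCl 10 h (-0.86 and -0.68, adjusted p 4.73e-06 and 0.000121), and was between 101 and 111 at late BDNF. Aard fell by 0.82 and 0.59 (adjusted p 0.0037 and 0.0346), from 56.1 to 106 in controls (median 77.5) to 36.4 and 52.1 and then 59.9 and 43.6, which overlaps the controls at 10 h. Aard was also lower at BDNF 10 h (-0.68, adjusted p 0.0251). Without KCl 6 h replicate 1 it was at -0.56 at 6 h, and without KCl 10 h replicate 2 at -0.36 at 10 h, neither called. Rbpj, the DNA-binding effector of Notch signalling, fell by 0.23 and 0.41 (adjusted p 0.0235 and 0.000462) with KCl and was also lower at BDNF 6 h and 10 h (-0.38 and -0.34, adjusted p 0.00153 and 0.00462) after a higher value at BDNF 1 h (0.32, adjusted p 0.00717). Its 6 h value with KCl was -0.12 without KCl 6 h replicate 1, which was not called.

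**Figure D5:**
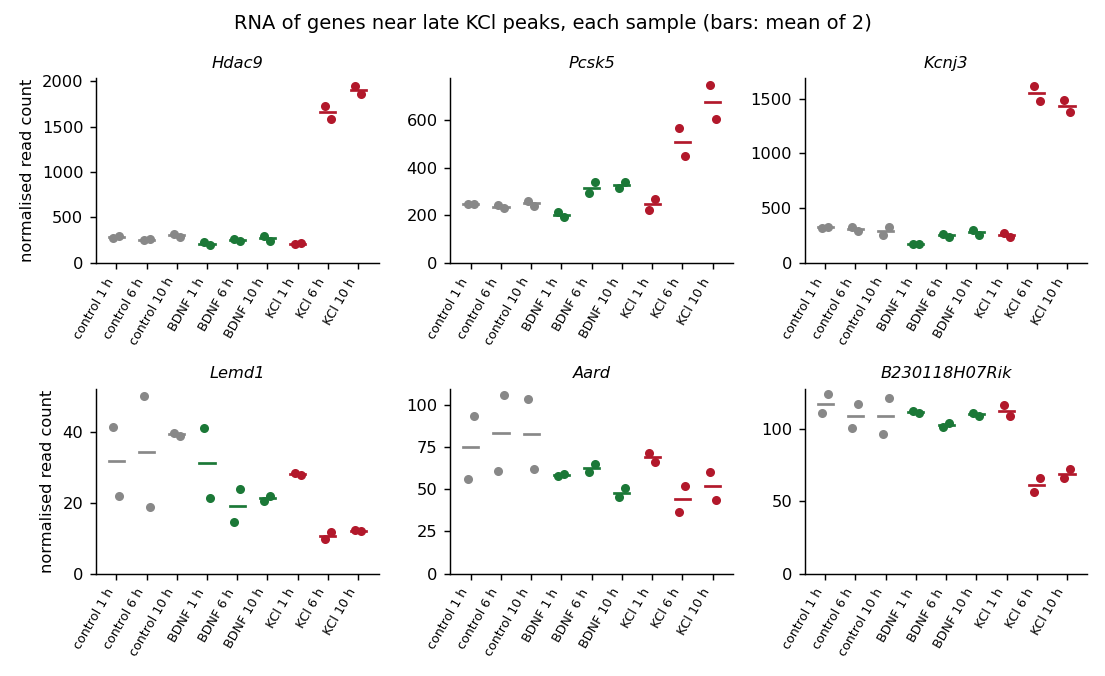
Normalised read counts of 6 genes near late KCl peaks in each of the 18 RNA samples (points) with the mean of each group's 2 samples (bars), in order of control, BDNF and KCl at 1, 6 and 10 h; each panel has its own axis from 0. Hdac9 stands at 1589 or more and Kcnj3 at 1379 or more in the late KCl samples, and they stand at 318 and 332 or less elsewhere. Lemd1, Aard and B230118H07Rik are on average lower at late KCl than in the controls. Aard overlaps the controls at KCl 10 h and is also lower at BDNF 10 h.

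Since most members lay beyond 50 kb of a TSS, the nearest gene at any distance was also taken, 64 genes of which 50 were tested, and the genes named here were picked after their values were seen. At KCl 6 h 17 of 50 were higher and 14 lower (34.0% and 28.0%, beside 33.4% and 33.1% of all genes), and at KCl 10 h 15 and 9 (30% and 18%, beside 29.0% and 28.2%). In the direct comparison at 6 h 25 were higher with KCl and 4 lower (50.0% and 8.00%), beside 34.1% and 28.9% of the 2977 genes nearest to distal low-GC peaks and 32.4% and 26.2% of the 210 genes nearest to the 292 early BDNF peaks. At 10 h the gap was smaller, with 21 higher and 6 lower (42.0% and 12.0%), beside 32.1% and 22.1% near distal low-GC peaks and 37.6% and 20.0% near the early BDNF peaks. Against controls, 22 of the 50 were lower at BDNF 6 h and 13 higher (44.0% and 26.0%), beside 30.3% and 21.6% of the genes nearest to distal low-GC peaks. At BDNF 10 h 13 were lower and 9 higher (26% and 18%), beside 28.8% and 19.8%, so the larger share of lower genes was seen at 6 h alone. The direct comparison and that of BDNF with controls share the BDNF samples of each time. No test over the list was run, and genes near 1 locus are not independent.

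Kcnj3, which held the Kcnj3 peak 143.2 kb from its TSS and was nearest to a second member (chr2:55228198-55228868), was at 257 to 332 normalised counts in controls (median 324), 274 and 241 at KCl 1 h, 1613 and 1483 at KCl 6 h and 1491 and 1379 at KCl 10 h. Its log2 fold change was 2.32 and 2.21 (SE 0.10 and 0.10, adjusted p 3.75e-14 and 1.29e-13, limma), after a lower value at KCl 1 h (-0.26, adjusted p 0.0291), while BDNF gave -0.86 at 1 h, -0.29 at 6 h and -0.15 at 10 h, the last not called (adjusted p 0.241). Tac1, the substance P precursor gene, 54.3 kb from its member, rose with both stimuli (2.02 and 2.13 at KCl 6 and 10 h, 1.44 and 1.47 with BDNF, adjusted p at most 2.88e-05, limma), as it had at 1 h (1.01 with KCl and 1.23 with BDNF). Hs3st5 rose by 1.25 and 1.51 with KCl (adjusted p 2.41e-07 and 3.25e-08) and by 0.66 and 0.51 with BDNF (adjusted p 0.00134 and 0.0108). Pcdh20 rose by 1.29 and 1.61 with KCl (adjusted p 6.7e-08 and 5.51e-09) and fell by 0.47 at BDNF 6 h (adjusted p 0.0108). At 1 h Pcdh20 was lower with both stimuli (-0.63 with KCl, adjusted p 0.000667, and -1.37 with BDNF, adjusted p 7.65e-08). Grm3, near a member gained at BDNF 10 h, fell with BDNF (-1.11 and -1.08 at 6 and 10 h, adjusted p 6.84e-07 and 1.61e-06) and rose with KCl (0.34 and 0.73, adjusted p 0.0262 and 7.99e-05), also at 1 h (0.48, adjusted p 0.00373).

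The RNA of the factors whose motif words were searched gives the setting of the late times. Of 17 tested AP-1 and other bZIP factors 13 were higher and 0 lower at KCl 1 h, 12 and 2 at KCl 6 h, 12 and 3 at KCl 10 h. With BDNF 15 were higher and 1 lower after 1 h, 7 and 1 after 6 h, and 6 and 1 after 10 h. Over all genes 26.5% were higher and 28.2% lower at KCl 1 h, 33.4% and 33.1% at KCl 6 h, 29.0% and 28.2% at KCl 10 h, and 19% to 22.1% each way at the BDNF times. Of 30 genes of the other DNA-binding families 17 were higher and 6 lower at KCl 6 h and 12 and 10 at KCl 10 h. Among the MEF2 genes Mef2d was higher (0.74 and 0.49 at KCl 6 and 10 h) and Mef2a lower (-0.36 and -0.24), and Mef2c was at -0.06, not called, and -0.20. Of 30 late-response and secreted effector genes, among them Bdnf (4.86 and 4.6) and Scg2 (2.57 and 2.86), 28 were higher and 1 lower at KCl 6 h, 26 and 1 at KCl 10 h. With BDNF 24 were higher and 1 lower after 6 h, and 20 and 3 after 10 h. None of the genes of these lists had a member within 50 kb.

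Markers of the cells in culture moved in part with the late times. Over all genes tested 33.4% were higher and 33.1% lower at KCl 6 h, and 29.0% and 28.2% at KCl 10 h. The summed normalised counts of 10 neuron markers were 48397 to 54051 in controls and 44819 to 51870 at late KCl. Of these markers 5 were higher and 3 lower at KCl 6 h, and 4 and 3 at KCl 10 h. Of 5 astrocyte markers 4 were lower at KCl 6 h and 4 at 10 h, with sums of 8596 to 10727 beside 10558 to 15187 in controls. At BDNF 6 h and 10 h 5 and 3 were lower (21.1% and 19.5% of all genes), and 0 were higher at any of these times. Of 5 progenitor markers 3 were lower and 1 higher at KCl 6 h, and 2 and 0 at KCl 10 h (sums of 5207 to 5655, controls 6561 to 9154). Oligodendrocyte-lineage markers summed to 6535 to 7242 at late KCl and 5713 to 6194 in controls, with 2 of 5 higher and 2 lower at KCl 6 h, and 1 and 0 at KCl 10 h. Microglia markers summed to 109 to 175 and 120 to 166, with 1 of 5 lower at each late KCl time. Endothelial and mural markers summed to 30.1 to 47.7 and 14.5 to 25.2, and only 1 of these 5 was expressed highly enough to be tested. In bulk samples fewer cells of a type cannot be told apart from less RNA per cell, and the part of these shifts in the late KCl peaks was not tested.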

How the data were processed

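Mapping, peak calling and counting were done by the authors. ATAC-seq reads were aligned to mm10 with Bowtie2, peaks were called per sample with MACS2 and kept when found in at least 2 samples, and reads in the merged peaks were counted with DiffBind. The deposited ATAC values are whole-number counts of reads per peak, with 1 as the lowest value, although the table is named as normalised, so edgeR's quasi-likelihood test was used. RNA-seq reads were mapped with TopHat2 to GENCODE M16 transcripts, and the counting program was not given in the sources used here. Each deposited RNA value is a signal: a gene's read count that the authors divided by 1 DESeq2 size factor per sample. Whole reads were recovered from 100% of the RNA values (tolerance 0.01), and edgeR on those reads called 5454 genes higher and 5337 lower at KCl 6 h, where limma called 5417 and 5362. The authors' own tables of fold changes and p-values per peak and gene were not used.

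The members were found from CPM as described. edgeR 4.0.16 was fitted with LOESS offsets and 7 levels (the 6 controls as 1 level) to peaks with a mean count of at least 10, or with 9 levels for the controls alone, and limma 3.58.1 (trend, robust) to genes with a mean of at least 10, with Benjamini-Hochberg adjustment over all features. Both fits were tested on simulated data. Annotation and sequence came from GENCODE M21 and GRCm38. Replicates of a group differed by more than sampling noise. ATAC columns carry no replicate number, so 1 and 2 follow the order of the table. Named members were to be the 10 with the largest smaller late L among those with a mean count of at least 50, which left 2, and named genes those linked and called in 1 direction at both late KCl times. The members and lists were chosen with earlier results of these data known. DESeq2 1.42.0 was an alternative test. Results of 1 member are not reported here.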

Additional observations from a re-analysis of the deposited data

Results flagged for a closer look

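For 3 members named in the text or near the top of the order by late L, 1 control column stood apart from the other 5 by Dixon's criterion for 6 samples (20 groups of controls were examined, and chance flags about 1 in 20). The peak 54.3 kb from Tac1 was at 8.90 CPM in control 10 h replicate 2, with the next at 4.27. The Serpinb3b peak (chr1:107187633-107187811), which holds an AP-1 word, was at 7.98 CPM in control 6 h replicate 1, with the next at 3.73. The Kcne4 peak was at 23.9 CPM in control 10 h replicate 1, with the next at 14.9. In 2 of the 3 the high column was a control of 10 h, and why was not tested.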

How the results depend on the processing

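Low counts limit the members: 47 of 66 had a mean count below 30, and with a mean count of at least 50 only 3 peaks met the rule, 2 of them members. The number of peaks that met the rule was 165 with a mean count of at least 10, 114 with controls of the same time and 39 with LOESS offsets, of which 48, 21 and 30 were among the 66, and 58 to 94 with 1 column left out. CPM over kept peaks only, an alternative chosen after seeing the data, gave 68. The cause of these shifts was not tested.

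For late BDNF, the members gained at 6 h were 0 with adjusted p below 0.01, 0 with DESeq2, 0 with limma on log2 CPM, and 2 when controls of the same time were used, and those gained at 10 h were 1 with adjusted p below 0.01 and 1 with controls of the same time. With 1 column left out, 0 to 2 were gained at 6 h and 0 to 7 at 10 h. The members' median log2 fold change at BDNF 6 h was 0.13 with TMM scaling, 0.14 with controls of the same time and 0.14 with limma (0.0311 to 0.13 with 1 column left out), and at BDNF 10 h 0.23 with TMM scaling and 0.26 with limma (0.10 to 0.24). Between control 10 h and control 1 h it was 0.30 with TMM scaling, 0.29 with DESeq2 size factors, 0.30 with the DESeq2 test and 0.25 with limma (0.25 to 0.35), and between control 6 h and control 1 h 0.10 to 0.20 with 1 column left out.

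For the linked genes, an adjusted p below 0.01 left 2 lower at KCl 1 h, 3 higher and 3 lower at KCl 6 h, 2 higher at KCl 10 h, 1 higher at BDNF 6 h, and 2 higher and 1 lower for KCl against BDNF at 10 h. With controls of the same time 2 were lower at KCl 1 h, 2 higher at KCl 10 h and 1 lower for KCl against BDNF at 10 h, the last also without a filter, and the medians were -0.0345 at KCl 1 h, 0.0732 at KCl 6 h, 0.0583 at BDNF 1 h and -0.0666 at BDNF 6 h. TMM scaling gave a median of 0.00631 at BDNF 1 h. A link distance of 20 kb, which left fewer genes, gave 1 higher and 1 lower at KCl 1 h, 1 and 3 at KCl 6 h, 1 higher at KCl 10 h, 3 higher and 1 lower at BDNF 1 h, 3 higher at BDNF 6 h, 1 higher and 2 lower at BDNF 10 h, 4 higher and 1 lower for KCl against BDNF at 6 h and 2 higher at 10 h, with medians of 0.0770 and -0.0545 at KCl 6 and 10 h, 0.11 at BDNF 1 h and -0.0562 for KCl against BDNF at 6 h. A link distance of 100 kb gave 5 higher at KCl 1 h, 4 higher at BDNF 10 h and medians of 0.0770 at KCl 6 h and -0.0674 at BDNF 6 h. With 1 sample left out, 4 to 6 were higher and 3 to 6 lower at KCl 6 h, and 3 to 4 and 4 to 5 at KCl 10 h, and the medians ran from -0.106 to 0.0121 at KCl 1 h, 0.0330 to 0.136 at KCl 6 h, 0.0139 to 0.0956 at BDNF 1 h, -0.120 to -0.0613 at BDNF 6 h, -0.149 to -0.0277 at BDNF 10 h and -0.0179 to 0.0887 for KCl against BDNF at 10 h.

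With the replicate block, 5 linked genes were higher and 5 lower at KCl 6 h, as without it, and 6 were higher and 5 lower at BDNF 6 h, which changed no other count by over 1.5 times. The RNA letters did not pair the samples: over 36 pairs of groups the differences between letters A and B correlated from -0.31 to 0.42 (median 0.06), over 0.1 in 13. The share of members with an AP-1 word was 1.52% in a 100 bp window and 16.7% over the whole peak, and 0% were promoter peaks when protein-coding starts alone were counted. Medians of the linked genes changed sign at KCl 1 h with controls of the same time or without KCl 1 h replicate 1 or 2, control 6 h replicate 1 or 2 or control 10 h replicate 1, at KCl 10 h with a link distance of 20 kb or without KCl 10 h replicate 2 (-0.00890), for KCl against BDNF at 6 h with 20 kb, and at 10 h without KCl 10 h replicate 2. No called value changed sign. Those with a sample left out apart, 256 values moved by less than 1.5 times (counts) or than the spread between replicates (medians), or stayed within the exact interval (shares). The other 59 moved by more.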
